A study of Mus musculus with 2 samples.

Results

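The Hox genes encode homeodomain transcription factors that lie in clusters named Hoxa, Hoxb, Hoxc and Hoxd. The members examined were all probe sets of the array that the platform annotation assigns to exactly 1 gene with a symbol of Hoxa, Hoxb, Hoxc or Hoxd followed by a number. There were 48 such probe sets of the 34945 that name 1 gene, and they stood for 33 genes of 18193. Antisense transcripts and probe sets shared by 2 Hox genes were not members.

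Whole lungs were taken from mouse embryos at E15.5, a stage of airway branching, and their total RNA was hybridised to a one-colour Affymetrix mouse expression array. The wild type group was 1 array of RNA mixed from 4 wild type lung samples, and the TAZ-deficient group was 1 array of RNA mixed from 4 samples of their TAZ-deficient littermates. The Wwtr1 gene encodes TAZ, a coactivator of transcription that the Hippo kinases restrain and that acts through TEAD DNA-binding proteins. The labels do not say how the deficiency was made, nor the strain or sex of the embryos.

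Within the clusters, paralogue numbers run from 1 at the 3′ end up to 13 at the 5′ end, and no cluster holds every number. Genes of low number are in general expressed further towards the head, and genes of high number are used in the caudal trunk, the limbs and the urogenital tract. In the lung, Hox genes are known mainly from the mesenchyme, where the genes of paralogue group 5 act in branching and airway patterning, and loss of Hoxa5 disturbs the development of the trachea and lung in mice.

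Values are MAS5 signals, a linear intensity per probe set that the submitters scaled to a common mean on both arrays. A signal above 15.2, the median of all non-control signals, was counted as above the floor, and lower signals were not told apart from background. Ratios are TAZ-deficient over wild type on the log2 scale, with signals below 15.2 first set to 15.2, so that a fold with 1 array at or below the floor is a lower bound, written as "at least". A difference of 1.5-fold was the size rule for a call. With 1 pool on 1 array per group there was no spread between replicates, no test could be made, and no difference below has a replicate check. Precision is limited by the number of arrays. Since each probe set has its own affinity, no order of transcript levels is read from the signals of different genes.

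The labels were first checked on the targeted gene. All 3 probe sets of Wwtr1 were above the floor in wild type (791.2, 222.9 and 176.9) and below it in TAZ-deficient lung (11.3, 6.4 and 3.9). Lung tissue was identifiable from its markers. All 6 markers of lung epithelium and all 7 of lung mesenchyme were above the floor on both arrays, among them Nkx2-1, the lung lineage transcription factor (61.1 in the wild type pool, 60.6 in the TAZ-deficient pool), and Tbx4, a T-box factor of lung mesenchyme (970.0 and 993.5). Pairs of signals below are given with the wild type pool first.

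Transcripts of 11 of the 33 Hox genes were above the floor on either array, and these carried paralogue numbers 2 to 6. They were Hoxa2, Hoxa3, Hoxa4, Hoxa5, Hoxb2, Hoxb3, Hoxb4, Hoxb5, Hoxb6, Hoxc4 and Hoxc6. The share of 33.3% compares with 66.1% of all genes on the array. Of the 13 genes of paralogue groups 2 to 6, 11 were above the floor, against 0 of 2 genes of group 1 and 0 of 18 genes of groups 7 to 13. These ranges were not set in advance and follow the numbers of the genes above the floor. The counts of 0 are therefore a description and not a test of position. By probe sets, 15 of 48 were above the floor, or 31.2%, compared with 60.9% of all probe sets that name 1 gene.

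**Figure D1:**
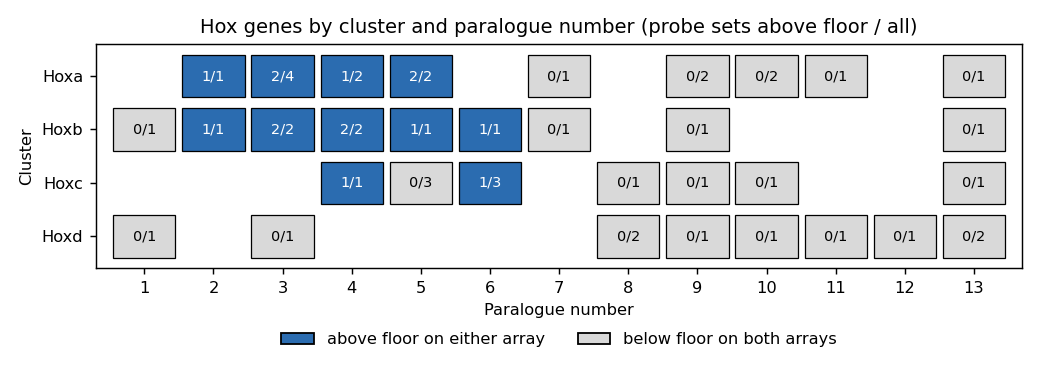
The 33 Hox genes examined, by paralogue number (x axis) and cluster (y axis), coloured by whether any probe set standing for the gene was above the floor of 15.2 signal units on either array; the fraction gives probe sets above the floor over all probe sets. The 11 genes above the floor all lie between paralogue numbers 2 and 6, and Hoxd has none.

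The clusters differed in how many members were above the floor. Hoxa had 4 of 9 genes above it and Hoxb 5 of 9. Hoxc had 2 of 7, each on 1 array only, and Hoxd had 0 of 8. In Hoxa and Hoxb, all 9 genes of groups 2 to 6 that had a probe set were above the floor on both arrays. In Hoxc and Hoxd, 2 of 4 such genes were above it on 1 array and 0 on both. Hoxd3 was the only Hoxd gene of groups 2 to 6 among the members. The count of 0 of 8 for Hoxd therefore comes mostly from groups with no gene above the floor in any cluster.

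In the gene order of the GRCm38.p6 RefSeq annotation, the Hoxb genes above the floor were neighbouring Hox genes, from Hoxb2 to Hoxb6. Hoxb1, a hindbrain patterning gene at the 3′ end, read 2.2 and 5.9. At the other end Hoxb7 read 1.1 and 1.3, although a probe set that it shares with Hoxb8, outside the members, read 21.3 and 14. Hoxb9 read 3.2 and 5.8. The Hoxa genes above the floor ran in the same way from Hoxa2 to Hoxa5. Hoxa7 beyond them read 4.3 and 1.8.

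The 18 genes of groups 7 to 13 had 22 probe sets, whose signals ran from 0.4 to 12.3 over both arrays. In Hoxa these were Hoxa7, Hoxa9, Hoxa10, Hoxa11 and Hoxa13, in Hoxb they were Hoxb7, Hoxb9 and Hoxb13, and in Hoxc they were Hoxc8, Hoxc9, Hoxc10 and Hoxc13. In Hoxd they were Hoxd8, Hoxd9, Hoxd10, Hoxd11, Hoxd12 and Hoxd13, of which the genes at the 5′ end are known for limb and genital patterning. Hoxd8 read 12.3 and 8.2 at one probe set and 5.3 and 10.1 at the other. The remaining genes below the floor were Hoxb1, Hoxd1 (3.6 and 3.3), Hoxd3 (2.7 and 6.2) and Hoxc5, whose 3 probe sets read between 0.7 and 4.9. A signal below the floor shows only that the transcript was not detectable by these probes on these arrays.

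Probe sets of one gene did not always agree on which side of the floor they lay. Hoxa3, Hoxa4 and Hoxc6 had 5 probe sets below the floor beside those above it, with signals from 1.3 to 12.7. Hoxa3 had 4 probe sets, of which 2 were above the floor and the others read 3.1 and 5.2, and 9.0 and 4.5.

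**Figure D2:**
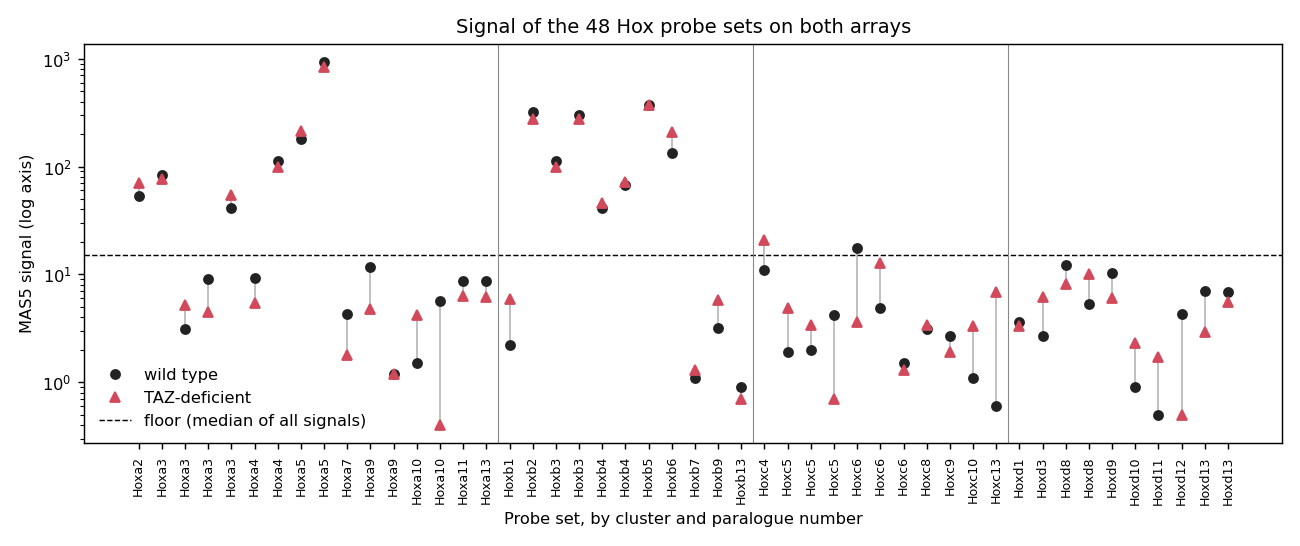
MAS5 signal on a log axis for each of the 48 Hox probe sets, ordered by cluster and paralogue number and separated by vertical lines between clusters; circles are the wild type array, triangles the TAZ-deficient array, and the dashed line is the floor of 15.2. The 13 probe sets of Hoxa and Hoxb above the floor are above it on both arrays, while those of Hoxc4 and Hoxc6 cross it between arrays.

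The stretches of 250 bases upstream of the start site are shown for Hoxa2, Hoxa5 and Hoxb4, which were above the floor in both pools and have an entry in the RefSeq promoter table of GRCm38.p6, as has Hoxa3, and for Hoxa9, which was below the floor in both. They were picked after the motif search, Hoxa2, Hoxb4 and Hoxa9 because each holds a match to a different motif, and Hoxa5 for its known part in the lung. They are printed 5′ to 3′ along the gene, and capitals mark a match on either strand to 1 of 3 motifs, with no overlap between matches. The motifs were GGAATG, the core bound by TEAD proteins, TGATNNAT, a site of Hox proteins with Pbx partners, and AGGTCA, the repeat unit bound by retinoic acid receptors.
Hoxa2 (chr6:52164832-52165081, minus strand): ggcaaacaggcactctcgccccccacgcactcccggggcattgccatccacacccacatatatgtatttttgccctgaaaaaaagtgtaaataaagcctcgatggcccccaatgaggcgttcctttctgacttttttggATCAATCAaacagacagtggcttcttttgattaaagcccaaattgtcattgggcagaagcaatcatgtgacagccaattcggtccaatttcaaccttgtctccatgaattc
Hoxa5 (chr6:52204588-52204837, minus strand): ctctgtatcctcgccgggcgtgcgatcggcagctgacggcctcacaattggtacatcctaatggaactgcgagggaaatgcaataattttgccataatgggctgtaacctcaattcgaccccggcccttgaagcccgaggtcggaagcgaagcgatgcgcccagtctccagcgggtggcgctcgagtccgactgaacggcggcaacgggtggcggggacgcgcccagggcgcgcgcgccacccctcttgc
Hoxb4 (chr11:96318017-96318266, plus strand): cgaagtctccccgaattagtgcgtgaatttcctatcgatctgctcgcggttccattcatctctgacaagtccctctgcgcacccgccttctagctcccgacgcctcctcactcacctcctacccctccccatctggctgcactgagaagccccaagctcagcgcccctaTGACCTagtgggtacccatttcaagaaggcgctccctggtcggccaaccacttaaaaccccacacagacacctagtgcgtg
Hoxa9 (chr6:52227371-52227620, minus strand): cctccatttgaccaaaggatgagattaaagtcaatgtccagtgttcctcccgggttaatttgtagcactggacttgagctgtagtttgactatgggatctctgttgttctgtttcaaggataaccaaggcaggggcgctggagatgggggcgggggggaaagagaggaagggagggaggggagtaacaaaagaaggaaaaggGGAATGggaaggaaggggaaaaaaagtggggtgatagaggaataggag

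The TEAD core matched 1 of 24 Hox promoter entries, that of Hoxa9, compared with 12.6% of the 32851 entries of the same length. The Hox and Pbx motif matched 4 of 24, those of Hoxa2, Hoxb1, Hoxb8 and Hoxd11, compared with 7.68%. The retinoic acid receptor motif matched 6 of 24, those of Hoxb4, Hoxc4, Hoxd3, Hoxd4, Hoxd8 and Hoxd10, compared with 14%. Of the genes matched by either of these motifs, only Hoxa2, Hoxb4 and Hoxc4 were above the floor. Hoxb8 and Hoxd4 had no probe set of their own, and the others were below the floor. The Hoxa5 and Hoxa3 stretches held none of the 3 motifs. A TATA motif (TATAAA) was also searched and matched 4 of 24, none of them among the stretches shown, compared with 12.4%. These are matches of letters and do not show that a factor binds. Of the 24 entries, 5 belong to genes above the floor and 16 to genes below it.

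Between the pools, 1 of the 11 Hox genes above the floor differed by at least 1.5-fold. Hoxb6 was 1.56-fold higher in TAZ-deficient lung, and 0 genes were at least 1.5-fold lower. Of all 12032 genes above the floor, 1.28% were at least 1.5-fold higher and 1.47% at least 1.5-fold lower. The other 10 Hox genes were under 1.5-fold, and 8 of the 11 were within 1.2-fold, compared with 81.4% of all genes, with Hoxc4 and Hoxc6 counted at their lower bounds. Each gene is represented here by its probe set with the highest mean log2 signal.

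The direction was mixed. Ratios were positive for 5 Hox genes and negative for 6, compared with 46.8% positive and 52.9% negative over all genes. The median log2 ratio of the 11 genes was -0.11, and that of all genes above the floor was -0.01. The sign of the Hox median depended on the choice of probe set, being 0.05 when each gene was represented by the median of its probe sets above the floor.

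Hoxb6, which is expressed in trunk mesoderm and limb buds of the embryo, read 132.4 and 206.9. Its log2 ratio of 0.64 rests on a single probe set whose suffix (_a_at) stands for several transcripts of 1 gene, so that no second reading of the gene was at hand. The measure of error used here is how far probe sets of one gene disagree. Over 5637 genes with 2 probe sets above the floor, the SD of the difference between their log2 ratios, divided by the square root of 2, was 0.20. Signals set to the floor entered these ratios, which can make the SD smaller. The SD holds no variation between embryos, pools or labelling reactions.

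The paralogues of group 5 are those best known for lung development. Hoxa5 read 927.2 and 843.1 at the probe set with the higher signal, which is 1.10-fold lower. Its other probe set, whose suffix (_x_at) marks cross-hybridisation, read 180.9 and 213.8, 1.18-fold higher. The pair thus gave opposite signs, 0.38 apart on the log2 scale. Hoxb5, a regulator of airway branching, read 369.9 and 373.7, which is 1.01-fold. Hoxc5 was below the floor on both arrays at all 3 probe sets.

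Group 2 and group 3 genes pattern the hindbrain and pharyngeal arches. Hoxa2 read 53.2 and 70.1 (1.32-fold higher) at its single probe set. Hoxb2 read 318.4 and 273.8 (1.16-fold lower), the lowest ratio among the 9 Hox genes above the floor on both arrays. The paralogues of group 2 therefore had opposite signs.

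Hoxa3, known for its part in thymus and parathyroid formation, read 84.1 and 75.9 at a probe set whose suffix (_s_at) marks it as shared, and 40.9 and 54.4 at another. These are 1.11-fold lower and 1.33-fold higher, although both probe sets are annotated to the same sequence record, and they lay 0.56 apart on the log2 scale. Hoxb3 was lower at both of its probe sets, with 298.8 and 276.5 at one and 112.6 and 99.1 at the other. These are 1.08-fold and 1.14-fold lower, 0.07 apart on the log2 scale.

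In group 4, Hoxa4 read 111.7 and 99.4 (1.12-fold lower), and its second probe set was below the floor (9.3 and 5.4). Hoxb4, which is known for promoting the growth of blood stem cells, was higher at both probe sets, with 66.9 and 71.7 at one and 41.1 and 45.7 at the other. The folds were 1.07 and 1.11, and both probe sets are annotated to the same sequence record. Hoxc4 was above the floor in TAZ-deficient lung only, with 11.1 and 21.0 (at least 1.38-fold higher).

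Hoxc6, a gene of the thoracic region, crossed the floor in the other direction. Its probe set with the highest mean log2 signal read 17.4 and 3.6 (at least 1.14-fold lower). A second probe set read 4.9 and 12.7, below the floor on both arrays, and the third read 1.5 and 1.3. The first had its higher signal in the wild type pool and the second in the TAZ-deficient pool. Both Hoxc genes therefore rested on a signal close to 15.2 on 1 array.

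**Figure D3:**
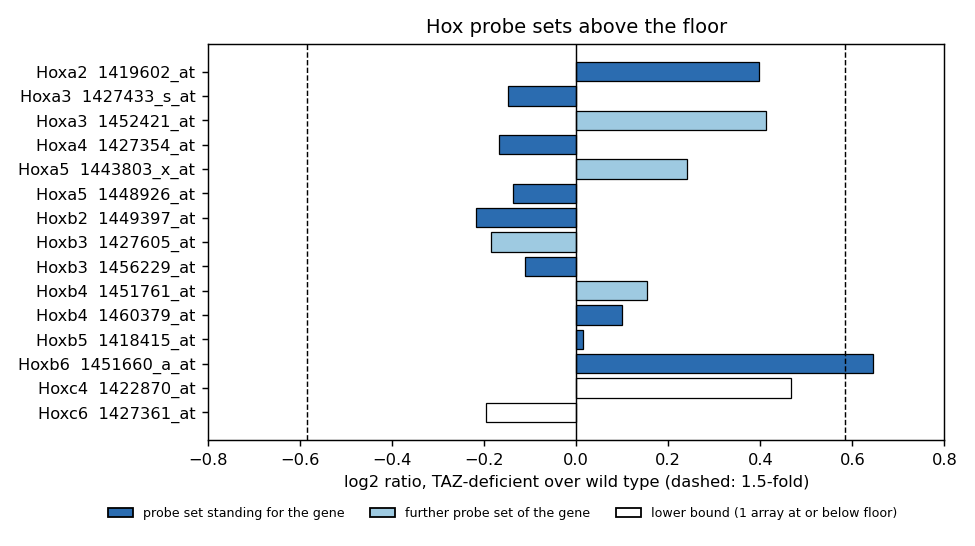
Signal ratio of the TAZ-deficient to the wild type array on the log2 scale (x axis) for the 15 Hox probe sets above the floor (y axis), dark bars for the probe set that stands for the gene, light bars for further probe sets and white bars for lower bounds. Only the bar of Hoxb6, at 0.64, passes the dashed line at 1.5-fold, and the bars of Hoxa3 and of Hoxa5 point in opposite directions.

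Among the 4 genes with 2 probe sets above the floor, the probe sets had the same sign for Hoxb3 and Hoxb4 and opposite signs for Hoxa3 and Hoxa5. Of all 5637 genes with such a pair, 58.0% had the same sign. By cluster, Hoxa had 1 positive and 3 negative ratios with a median of -0.14, and Hoxb had 3 positive and 2 negative with a median of 0.01. No difference between clusters was tested.

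**Figure D4:**
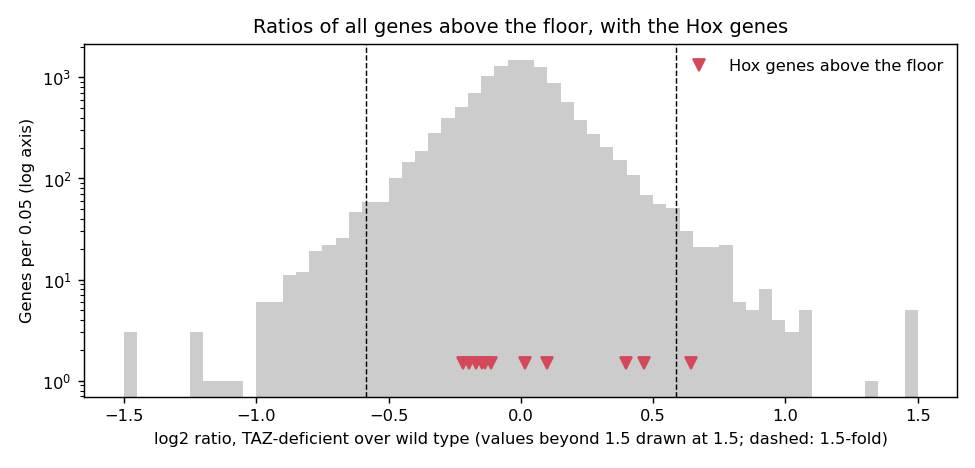
Number of genes (log axis) per 0.05 of log2 signal ratio, TAZ-deficient to wild type, for all 12032 genes above the floor, with triangles at the ratios of the 11 Hox genes and dashed lines at 1.5-fold. The Hox ratios run from -0.22 (Hoxb2) to 0.64 (Hoxb6), Hoxc4 and Hoxc6 being drawn at their lower bounds, and 10 of 11 lie between the lines.

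Hox proteins bind DNA together with TALE homeodomain partners. Of the 8 partner genes with a probe set of their own, 7 were above the floor, compared with 66.1% of all genes. None was 1.5-fold different, compared with 2.75% of all genes above the floor. At that share, a count of 0 does not set apart a list as short as this or those below. The median log2 ratio was -0.01, the same as over all genes above the floor to 2 decimals. Pbx2 read 431.6 and 429.3. Pbx3 read 303.8 and 361.1 at one probe set (1.19-fold higher) and 187.3 and 224.1 at the other, also higher. Meis1, a cofactor of several Hox proteins, read 281.7 and 276.9, and Pknox1 read 231.3 and 222.4. Pbx4 was below the floor (9.5 and 9.6).

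The Polycomb and trithorax proteins keep Hox clusters silent or active. Of 21 genes with a probe set, 20 were above the floor. Of these 0 were 1.5-fold different, compared with 2.75% of all genes above the floor. There were 11 positive and 9 negative ratios, with a median of 0.02. Ezh2, the histone H3 methyltransferase of Polycomb, read 788.5 and 831.3, and Phc2, a Polycomb subunit, read 794.3 and 767.7. The ratios in the list ran from that of Phc3 (106.0 and 78.2, 1.36-fold lower) to that of Cbx8 (29.1 and 38.7, 1.33-fold higher).

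Retinoic acid induces Hox genes of low paralogue number. Of 12 genes of its receptors and enzymes with a probe set, 10 were above the floor. Of these 0 were 1.5-fold different, compared with 2.75% of all genes above the floor. Ratios were positive for 5 and negative for 5, with a median of 0.00. Rxrb, a nuclear receptor partner, read 290.0 and 288.9, and Aldh1a1, a retinaldehyde dehydrogenase, read 257.8 and 232.1. Cyp26b1, which degrades retinoic acid, read 33.9 and 47.8 (1.41-fold higher). Rarb, the receptor gene that is itself induced by retinoic acid, read 83.3 and 70.8 (1.18-fold lower). Aldh1a2, another retinaldehyde dehydrogenase, read 215.9 and 235.4 (1.09-fold higher), and the receptor gene Rarg read 178.6 and 189.7 (1.06-fold higher).

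Of the 8 ParaHox and Evx genes, relatives of the Hox genes, only Evx2 was above the floor (20.9 and 15.8). The highest signal among the other 7 was 7.2. Of 16 genes close to the Hox clusters on the chromosome, 12 were above the floor, compared with 66.1% of all genes. Of the 12, 1 was at least 1.5-fold higher and 0 lower, compared with 1.28% and 1.47% of all genes above the floor. That one was Hnrnpa1, an RNA-binding protein gene near Hoxc, with 388.3 and 704.7 (1.81-fold higher) at a probe set whose suffix marks cross-hybridisation and 295.5 and 289.9 at another. Skap2, which borders Hoxa at the 3′ end, read 333.9 and 326.0. Mtx2, which borders Hoxd, read 541.5 and 492.1 while all 8 Hoxd genes were below the floor.

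Marker genes of the tissues that a dissected lung can carry were read beside the Hox genes. Summed over the 7 markers of lung mesenchyme, signal was 7760.0 and 7884.1. Of the 7, 0 were at 1.5-fold, compared with 2.75% of all genes above the floor. In that list Col3a1, a fibrillar collagen and the largest part of the sum, read 3422.8 and 3524.0, and Foxf1, a forkhead factor, read 1003.6 and 948.3. Tbx5 read 116.8 and 93.1 (1.25-fold lower), and the list had 4 positive and 3 negative ratios. In a bulk sample, fewer cells of a type and less RNA per cell cannot be told apart. Summed signals were 7545.8 and 7868.2 for the 6 epithelial markers, most of each sum from Sftpc (surfactant protein C, 4142.5 and 4121.5). Epcam (an epithelial adhesion protein) read 1287.4 and 1335.8. Foxa2 read 483 and 641 (1.33-fold higher), the largest ratio among the epithelial markers, of which 4 had positive and 2 negative ratios. The sums were 1318.3 and 1297.6 for the 4 endothelial markers and 274.1 and 315.4 for the 3 mesothelial markers, with none at 1.5-fold. Pecam1 and Cdh5, adhesion proteins of endothelium, read 499.1 and 455.1, and 352.3 and 342.3. The other endothelial markers were not lower, as Kdr read 195.9 and 229.2 (1.17-fold higher) and Tek read 271 in both pools. Upk3b and Wt1, markers of mesothelium, read 239.9 and 280.3, and 23.0 and 22.4.

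The muscle markers above the floor had negative ratios of very different size at the probe set standing for the gene. Of 3 smooth muscle markers, 1 was at least 1.5-fold lower (Cnn1, calponin 1, 118.6 and 79.0). Myh11 read 80.1 and 57.0 (1.41-fold lower), and Acta2, smooth muscle actin, read 2749.2 and 2701.5. The list summed to 2947.9 and 2837.5, most of it from Acta2. Of 4 heart markers 2 were above the floor, both at least 1.5-fold lower (Myl7, an atrial myosin light chain, 83.6 and 46.2, and Tnnt2, cardiac troponin T, 30.6 and 20.1). The sums over all 4, including those below the floor, were 128.7 and 82.4. Over all genes above the floor, 1.47% were at least 1.5-fold lower. Of 4 skeletal muscle markers 2 were above the floor, and the sums over all 4 were 52.3 and 38.3. Ckm, muscle creatine kinase, read 23.3 and 10.6 (at least 1.53-fold lower) at one probe set and 10.1 and 19.6 at the other.

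Of 5 nerve markers with a probe set, 3 were above the floor, all with negative ratios. The sums over all 5, including those below the floor, were 132.3 and 111.2. Gap43, a growth cone protein, read 51.4 and 48.5, and Stmn2, a neuronal microtubule regulator, read 46.1 and 32.5. Of 4 liver markers, 1 was above the floor (Alb, albumin, 15.3 and 10.7), and the sums over all 4 were 30.0 and 28.3. Of the 3 kidney markers with a probe set, Cdh16 read 260.6 and 265.7, while the nephron progenitor genes Six2 and Lhx1 were below the floor. The sums over all 3 were 272.9 and 276.0. No marker was listed at 0 on either array. The part of these tissues in the Hox values was not tested.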

How the data were processed

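The deposited table held 1 value per probe set for each of 2 arrays. Per the submitters' processing notes, the authors used GCOS and MAS5, with no version given. The deposited values are intensity on a linear scale, and the mean of each array, trimmed by 2% at both ends, was 100.001. Detection calls were not used here, and the genome build behind the probes is not stated in the labels.

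Of 45101 probe sets, 64 were controls, 34945 named 1 gene in the platform annotation and 932 named several. Symbols were updated through Entrez identifiers to RefSeq GRCm38.p6 for 34741. Python 3.11.15 with pandas 2.3.3 was used. The floor was 15.2 signal units, and the counting rule was tested on simulated data. Alternatives were floors at the 25th and 75th percentile, log2(signal + 16), quantile, loess and median scaling, the median over probe sets, and leaving out probe sets with the suffixes _s_at, _x_at and _a_at.

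Every Hox gene above the floor was named, and of the other lists those 1.5-fold different or else the 2 with the highest mean signal. Further members of these lists were chosen after their values were seen. The members and lists were chosen with earlier results of these data known.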

Additional observations from a re-analysis of the deposited data

Results flagged for a closer look

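Among 8 probe sets that carry a Hox name but fall outside the members, 2 had a signal above the floor. The probe set of Hoxb5os, a transcript of the Hoxb cluster, read 204.8 in the wild type pool and 268.5 in the TAZ-deficient pool (1.31-fold higher). Ordered by RefSeq start coordinate alone, Hoxb5os falls between Hoxb7 and Hoxb6, which does not give the extent of the transcript. The probe set shared by Hoxb8 and Hoxb7 read 21.3 and 14 (at least 1.40-fold lower), while the probe set of Hoxb7 alone was below the floor. The other 6, of Hoxa11os, Hoxd3os1 and the Hoxd4 and Hoxd3 pair, read at most 10.5.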

How the results depend on the processing

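Counts of Hox genes above the floor moved with the floor, from 11 to 22 at the 25th percentile (4.3 signal units) and to 6 at the 75th (106.3). The limits by position and cluster did not hold at the 25th percentile. There Hoxb1, Hoxa9, Hoxa11, Hoxa13, Hoxb9, Hoxc13, Hoxd8, Hoxd9 and Hoxd13, all outside paralogue groups 2 to 6, were above the floor, as was Hoxd3. At the 75th percentile all genes above the floor were of groups 2 to 6 in Hoxa and Hoxb. At the 25th percentile 4 Hox genes were at least 1.5-fold lower and 3 higher, all changes at low signal apart from Hoxb6. With log2(signal + 16) in place of the floor, 1 gene (Hoxc6) was at least 1.5-fold lower. Without probe sets of the suffixes _s_at, _x_at and _a_at no probe set of Hoxb6 is left, and 0 genes were 1.5-fold higher. The median log2 ratio was 0.052 with the median over probe sets, opposite in sign to the -0.11 reported, and between -0.12 and -0.05 under the other 7 alternatives. No Hox gene above the floor changed sign under quantile, loess or median scaling. Hoxb6 stayed at least 1.5-fold higher under every alternative that kept its probe set. No paired analysis was possible because each group is 1 array, and no array could be left out. Nearness to the floor limits what Hoxc4 and Hoxc6 can show.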
